A study of Mus musculus with 12 samples.

Results

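Il10, Il10ra, Stat3, Socs3, Bcl3, Sbno2, Nfil3, Il4ra and Il21r, 9 genes of interleukin-10 (IL-10) and STAT3 signalling, were taken by symbol from a table of normalized expression that lists 38739 symbols, and all 9 were listed. The table holds 12 RNA-seq samples of bone marrow-derived macrophages (BMDMs), grown from the marrow of male C57BL/6J mice, 8 weeks old in the methods, that were wild type (WT) or knockout for cGAS (cGAS-/-) in every cell, marrow precursors included. cGAS senses DNA in the cytosol and signals through STING. Cells of each genotype received media control (UT) or lipopolysaccharide of E. coli 026:B6 (LPS), a component of the outer bacterial membrane, which gave 4 groups of 3 samples. The sample labels give LPS as 100 ng/mL for 1 h, the methods as 150 ng/mL for 24 h, so the time of exposure is uncertain. The study asked how loss of cGAS changes the response of macrophages to LPS, and its methods call the 3 samples of a group triplicates, which a legend describes as technical. No label says that they came from separate mice or cultures, so the p-values below measure only the spread between these samples. In bulk RNA, fewer expressing cells and less RNA per cell cannot be told apart.

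IL-10 is a cytokine that macrophages release when they sense microbial products, and it restrains further production of inflammatory cytokines. It binds a receptor of IL-10Rα and IL-10Rβ chains, whose kinases JAK1 and TYK2 phosphorylate STAT3. STAT3 then raises a set of genes, some of which (Socs3, Bcl3, Sbno2, Nfil3) feed back on cytokine receptors or on the transcription of cytokine genes. Il4ra and Il21r encode receptors of other cytokines, IL-4 and IL-13 for the former and IL-21, which also uses STAT3, for the latter.

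Values are TPM (abundances of transcripts scaled to a fixed total), as inferred from the numbers themselves, averaged over the transcripts of a symbol, and levels are therefore compared within a gene only. Their sum was 709802 in WT LPS replicate 3 and ran from 447189 to 503156 elsewhere. In that replicate protein-coding genes took 18.5% of the total, against 39.7% to 54.4% in the others, and the ferritin pseudogene Fth-ps3 took 31.7%. Cgas was at 1.19 to 3.25 TPM in WT and at 0.0703 to 0.291 TPM in cGAS-/- samples. Of 10 macrophage markers 7 were listed, at a summed 16786 to 34160 TPM, with none at 0 throughout a group. Lyz2, which neutrophils also express, made up most of that sum. The other 6 summed to 1314 to 1392 TPM in WT UT and 436 to 1595 TPM in WT LPS samples, with WT LPS replicate 3 lowest and replicate 2 highest. In cGAS-/- samples they summed to 1330 to 1372 TPM in UT and 720 to 774 TPM with LPS. Cx3cr1, 1 of the 6, was at 0.157 to 0.872 TPM in WT LPS samples. The extraction text names neutrophils; the 8 listed neutrophil markers summed to 35.9 to 353 TPM, with Mpo and Elane at most at 0.94 TPM. Both limits of the neutrophil sum lay in the WT LPS group, with replicate 3 lowest and replicate 1 highest.

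Promoter sequences were looked up for the members because STAT3 binds a palindromic motif, and the stretches that hold a match are shown. The RefSeq table (GRCm38.p6) had an entry for 7 of the 9 members and none for Il10 and Il10ra. Both strands of the 250 bases before each listed start were searched for the STAT motif TTCNNNGAA, where N is any base, and for the NF-κB consensus. The STAT motif stood before 7.02% of all 32851 promoters and the NF-κB consensus before 3.9%. Socs3 had the STAT motif 154 bases before its start and Sbno2 had it before 2 of its 3 listed starts, 26 and 24 bases away. The last listed Sbno2 start had the NF-κB consensus 179 bases away instead. Neither motif was found in these windows of Bcl3, Il4ra, Il21r, Stat3 and Nfil3. The stretches below are written 5′ to 3′ on the strand of the gene, the minus strand in each case, with the motif in capitals. They lie at chr11:117969502-117969530 for Socs3 and at chr10:80102710-80102738, chr10:80101193-80101221 and chr10:80075599-80075628 for the 3 starts of Sbno2, in the same order.
Socs3, STAT motif: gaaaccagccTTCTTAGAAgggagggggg
Sbno2, STAT motif, first start: gccgcgccccTTCGCAGAAgcggaagtgc
Sbno2, STAT motif, second start: ccggctctgcTTCCCGGAAtgcctgtgag
Sbno2, NF-κB consensus, last start: cttgtcccaaGGGAAGTCCCagagaagtgg
A match says only that these letters are present, and binding was not measured here.

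Some of the 9 members responded to LPS in both genotypes. Socs3 rose from 1.26 TPM or less by the highest fold of the 9, Nfil3 and Il4ra also rose in both genotypes, and Il10ra fell in WT cells. Il10 passed the test in WT cells and Bcl3 in cGAS-/- cells, but the difference between the genotypes' LPS effects passed for neither. Limma on log2(TPM + 1) across the 11887 genes that passed the filter on low values, all 9 members among them, with an adjusted p under 0.05, called 5 of 9 members in WT cells, where 27.6% of all genes were called, and 4 of 9 in cGAS-/- cells, where 13.8% were. In WT cells 4 members were higher, as were 4.31% of all genes, and 1 was lower, as were 23.3%. The 4 in cGAS-/- cells were all higher, as were 4.76% of all genes. The methods' further threshold, a log2 fold change beyond 2, was passed by Socs3 and, narrowly, Nfil3 in WT cells, where 4.32% of all genes passed it, and by Socs3 in cGAS-/- cells, where 3.5% did. The median log2 fold change of the 9 members was 0.41 in WT and 1.14 in cGAS-/- cells, beside −0.46 and −0.20 over all genes.

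**Figure D1:**
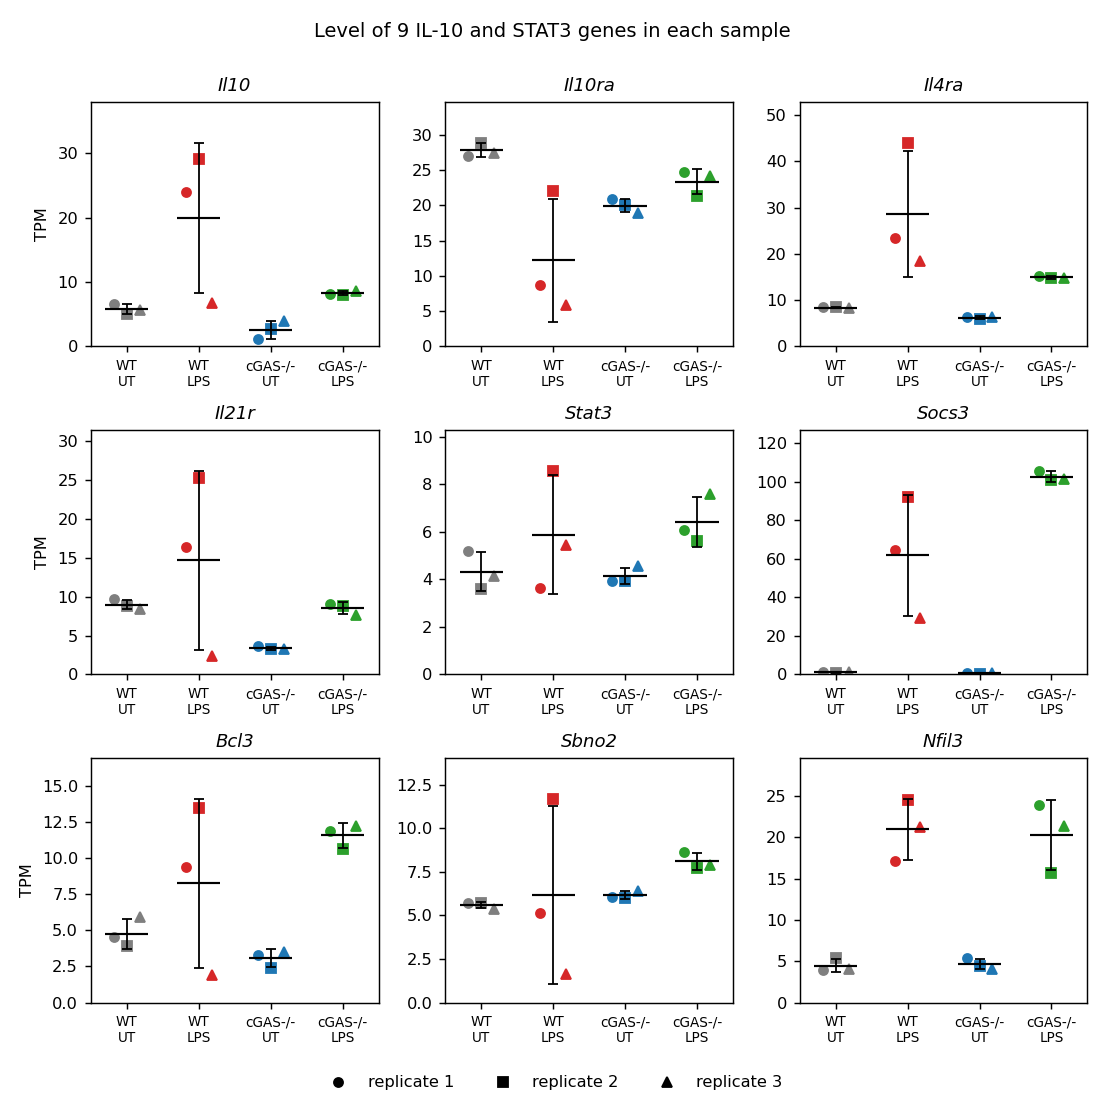
Level in TPM (vertical axes, from 0, separate for each gene) of the 9 members in the 3 samples of each group, with marker shape giving the replicate number and black lines the mean and SD. WT LPS samples spread widely, with replicate 2 highest and replicate 3 lowest for Il10, Il4ra, Il21r, Socs3, Bcl3 and Sbno2, while cGAS-/- LPS samples lie close together for these genes.

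Il10, the ligand of the pathway, lies on chromosome 1 (130947581 to 130952711, plus strand, GRCm39). WT UT samples had 6.56, 5.07 and 5.72 TPM, and WT LPS samples 24.03, 29.1 and 6.78 TPM. cGAS-/- UT samples had 1.14, 2.70 and 3.88 TPM, and cGAS-/- LPS samples 8.17, 7.97 and 8.62 TPM. All LPS samples of a genotype lay above its UT samples, but WT LPS replicate 3 lay just above them and below every cGAS-/- LPS sample. With protein-coding genes scaled to a common total that replicate was at 10.8, above the cGAS-/- LPS samples at 7.11 to 7.68. LPS raised Il10 by 1.42 log2 units in WT cells (standard error, SE, 0.46, limma adjusted p = 0.0413), a call lost without WT LPS replicate 1 (adjusted p = 0.0998) or replicate 2 (adjusted p = 0.0899), or without any 1 of the WT UT samples (adjusted p = 0.0837 to 0.114). The call was also lost with a pseudocount of 0.1 (adjusted p = 0.0619), with no filter on low values (adjusted p = 0.0867) and from the 6 WT samples alone (adjusted p = 0.178). In cGAS-/- cells it came to 1.45 (SE 0.46, limma adjusted p = 0.0607), which did not pass. It passed there with TMM factors (1.66, adjusted p = 0.0046), protein-coding scaling (1.21, adjusted p = 0.0156), a filter of 5 TPM (adjusted p = 0.049), weights per sample (adjusted p = 0.000186) and the 6 cGAS-/- samples alone (adjusted p = 0.0107). The difference between the genotypes' LPS effects was 0.035 (95% confidence interval −1.39 to 1.46, adjusted p = 0.983). From lowest to highest, the group means were 2.58 ± 1.37 TPM in cGAS-/- UT, 5.78 ± 0.749 in WT UT, 8.26 ± 0.333 in cGAS-/- LPS and 20.0 ± 11.7 in WT LPS cells (SD, n = 3). Of these neighbours, only cGAS-/- LPS and WT LPS overlapped sample by sample, and with that scaling they did not overlap.

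Il10ra, which encodes the ligand-binding chain of the IL-10 receptor (chromosome 9, 45165132 to 45180563, minus strand), moved the other way in WT cells. It was at 27.0, 28.9 and 27.4 TPM in WT UT samples and at 8.68, 22.1 and 5.83 TPM in WT LPS samples. In cGAS-/- cells it was at 20.9, 20.0 and 19.0 TPM without and at 24.6, 21.3 and 24.1 TPM with LPS. Each WT LPS sample lay below each WT UT sample, and each cGAS-/- LPS sample lay above each cGAS-/- UT sample, the latter only before protein-coding scaling. LPS changed Il10ra by −1.32 log2 units in WT cells (SE 0.37, limma adjusted p = 0.0223), a call lost without WT LPS replicate 1 (adjusted p = 0.0533) or any 1 of the WT UT samples (adjusted p = 0.0615 to 0.0688), and with TMM factors the fall was −0.68. In cGAS-/- cells the change was 0.21 (adjusted p = 0.795). With protein-coding genes scaled to a common total the value in cGAS-/- cells was −0.066, so no direction is given there. The difference between these effects, 1.54 (SE 0.52), had an adjusted p of 0.282. It passed without WT LPS replicate 2 (2.04, adjusted p = 0.00288), the highest WT LPS sample, and with weights per sample (1.45, adjusted p = 0.0258). None of the 9 members passed in this test of the interaction with all samples weighted equally, where 0.9% of all genes did and 2 members, Il10ra and Socs3, had an unadjusted p under 0.05. For this and later counts at an unadjusted p, the share of all genes was not counted, so they cannot be weighed against it. Without WT LPS replicate 2 these 2 passed, with 12.6% of all genes, and with weights Il10ra alone did, with 2.46%.

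Il4ra, the chain shared by receptors of IL-4 and IL-13 (chromosome 7, 125151079 to 125182844, plus strand), was at 8.42, 8.44 and 8.35 TPM in WT UT and at 23.4, 44.0 and 18.4 TPM in WT LPS samples. It was at 6.45, 5.96 and 6.28 TPM in cGAS-/- UT and at 15.3, 14.7 and 14.7 TPM in cGAS-/- LPS samples. No 2 of the 4 groups overlapped. Il4ra rose with LPS by 1.56 in WT (SE 0.28, limma adjusted p = 0.0025) and by 1.14 in cGAS-/- cells (adjusted p = 0.0201) on the log2 scale, and the difference of −0.42 did not pass (adjusted p = 0.693). The cGAS-/- call was lost without any 1 of the 6 cGAS-/- samples, with the log2 fold change still at 1.11 to 1.16. The antisense gene Gm44876 shares 571 identical bases with an annotated Il4ra transcript, 35.4% of it. It was listed at 0 to 3.16 TPM, with no sample above 0.747 TPM except WT UT replicate 3, WT LPS replicate 3 and cGAS-/- LPS replicate 2.

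Il21r, the receptor chain for IL-21, lies 19.8 kb after Il4ra on the same strand (chromosome 7, 125202601 to 125232756). It was at 9.66, 8.86 and 8.42 TPM in WT UT and at 3.60, 3.27 and 3.22 TPM in cGAS-/- UT samples. With LPS it was at 16.4, 25.2 and 2.37 TPM in WT and at 9.06, 8.83 and 7.63 TPM in cGAS-/- samples. WT LPS replicate 3 was the lowest of the 12 samples and the other WT LPS samples were the highest. The log2 fold change with LPS was 0.21 in WT (limma adjusted p = 0.794) and 1.12 in cGAS-/- cells (adjusted p = 0.26). Without WT LPS replicate 3 the WT value was 1.10 (adjusted p = 0.000825), and without replicate 2 it was −0.38.

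Stat3, the transcription factor of the pathway (chromosome 11, 100775924 to 100830450, minus strand), had overlapping or closely spaced groups. WT UT samples were at 5.21, 3.61 and 4.14 TPM and WT LPS samples at 3.63, 8.57 and 5.44 TPM. cGAS-/- UT samples were at 3.95, 3.94 and 4.55 TPM and cGAS-/- LPS samples at 6.06, 5.60 and 7.58 TPM. The WT groups overlapped and the cGAS-/- groups did not. The log2 fold change with LPS was 0.32 in WT (95% confidence interval −0.26 to 0.90, limma adjusted p = 0.375) and 0.52 in cGAS-/- cells (−0.06 to 1.10, adjusted p = 0.26). With TMM factors the WT value was 0.91 and passed (adjusted p = 0.0346), beside 20% of all genes. Without single WT LPS samples it ran from 0.049 (without replicate 2) to 0.57 (without replicate 1) and did not pass. The cGAS-/- value was 0.27 with protein-coding scaling, where the groups overlapped. These are mRNA levels, and phosphorylation of STAT3 was not measured here.

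Socs3, an inhibitor of cytokine receptor signalling that STAT3 induces (chromosome 11, 117856905 to 117860898, minus strand), showed the largest response. UT samples were at 1.17, 0.845 and 1.26 TPM in WT and at 0.651, 0.257 and 0.716 TPM in cGAS-/- cells. LPS samples were at 64.6, 91.9 and 29.3 TPM in WT and at 106, 101 and 101 TPM in cGAS-/- cells. The 4 groups did not overlap, with cGAS-/- samples below WT in UT and above WT with LPS. The rise on the log2 scale was 4.77 in WT (SE 0.35, limma adjusted p = 7.18e-06) and 6.08 in cGAS-/- cells (adjusted p = 1.34e-06), and the ratio of mean TPM was 56.8 and 189. The difference between the rises, 1.31 (95% confidence interval 0.22 to 2.40), had an adjusted p of 0.348. It passed without WT LPS replicate 2 (1.66, adjusted p = 0.0301) and was 0.86 without replicate 3 (adjusted p = 0.0943).

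Bcl3, an IκB family protein that restrains NF-κB at cytokine genes (chromosome 7, 19541553 to 19557570, minus strand), was at 4.51, 3.89 and 5.91 TPM in WT UT and at 9.39, 13.5 and 1.93 TPM in WT LPS samples. It was at 3.32, 2.42 and 3.54 TPM in cGAS-/- UT and at 11.9, 10.6 and 12.3 TPM in cGAS-/- LPS samples. WT LPS replicate 3 was the lowest of all 12 samples, and the cGAS-/- groups were well apart. Bcl3 rose in cGAS-/- cells by 1.63 on the log2 scale (SE 0.47, limma adjusted p = 0.0412), a call lost without any 1 of the cGAS-/- samples (1.51 to 1.71), with the replicate block (adjusted p = 0.067), with a pseudocount of 0.1 (adjusted p = 0.0591) and with no filter (adjusted p = 0.0945). In WT cells the value was 0.41 (adjusted p = 0.517), it was 1.10 without WT LPS replicate 3 (adjusted p = 0.00228) and −0.050 without replicate 2. The antisense gene Gm16175 overlaps Bcl3 and shares 202 identical bases with an annotated Bcl3 transcript, 9.7% of it. It was listed at 4.35 TPM in WT LPS replicate 2, at 1.73 TPM in cGAS-/- LPS replicate 1, at 9.04 TPM in cGAS-/- LPS replicate 2 and at 0 in the other samples. Whether its reads had a part in the Bcl3 values was not tested.

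Sbno2, a helicase-like co-regulator induced by IL-10 (chromosome 10, 79892826 to 79941521, minus strand), was at 5.72, 5.71 and 5.39 TPM in WT UT and at 5.12, 11.7 and 1.63 TPM in WT LPS samples. It was at 6.07, 6.01 and 6.41 TPM in cGAS-/- UT and at 8.65, 7.72 and 7.92 TPM in cGAS-/- LPS samples. WT LPS samples lay on both sides of the others, and the cGAS-/- groups were apart by a small step. Log2 fold changes were −0.17 in WT (limma adjusted p = 0.785), which was 0.37 with TMM factors, and 0.34 in cGAS-/- cells (adjusted p = 0.705), which was 0.086 with protein-coding scaling, where the groups overlapped.

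Nfil3, a bZIP transcription factor that IL-10 raises in macrophages (chromosome 13, 53121245 to 53137010, minus strand), was at 3.99, 5.39 and 4.001 TPM in WT UT and at 17.2, 24.5 and 21.3 TPM in WT LPS samples. It was at 5.36, 4.48 and 4.12 TPM in cGAS-/- UT and at 23.9, 15.6 and 21.4 TPM in cGAS-/- LPS samples. LPS and UT samples were well apart in both genotypes, and the genotypes overlapped in both treatments. Nfil3 rose by 2.005 in WT (SE 0.24, limma adjusted p = 0.000176) and by 1.90 in cGAS-/- cells (adjusted p = 0.00027) on the log2 scale. The difference was −0.11 (95% confidence interval −0.84 to 0.63). Nfil3 and Socs3 passed the adjusted p in both genotypes in every alternative fit that was run, but Nfil3 did not pass the added fold threshold in cGAS-/- cells.

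**Figure D2:**
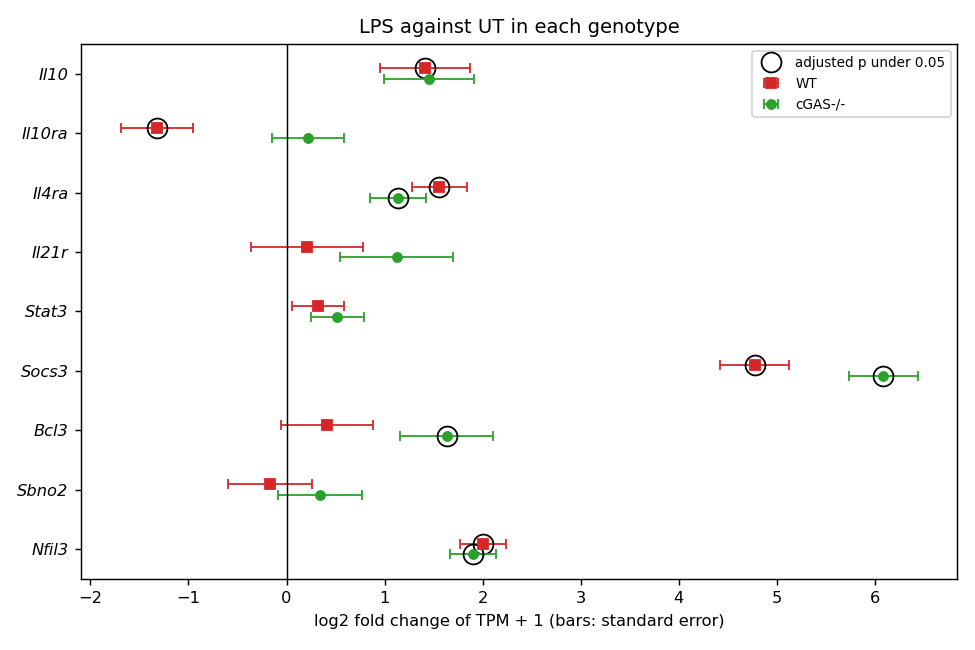
Log2 fold change of TPM + 1 between LPS-treated and UT cells (horizontal axis) for each member in WT (squares) and cGAS-/- cells (circles), with standard errors as bars and a ring around values with an adjusted p under 0.05. Socs3 stands at 4.77 and 6.08, Il10ra at −1.32 in WT cells and 0.21 in cGAS-/- cells.

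How many members passed with LPS differed with the samples in the fit and their weights. From the 6 cGAS-/- samples alone 8 of 9 passed, all but Il10ra and all higher, but so did 44.6% of all genes, and with weights per sample 8 of 9 passed beside 48.3%. From the 6 WT samples alone Socs3 and Nfil3 passed, beside 6.02% of all genes, and without WT LPS replicate 3, which also moved the fold changes, all but Stat3 and Sbno2 passed, beside 34.7%. At all 9 members the cGAS-/- LPS samples lay beyond the cGAS-/- UT samples, as at 55.7% of genes tested. With protein-coding genes scaled to a common total 6 members were apart there, beside 75.3% of 8768 genes, and the groups overlapped at Il10ra, Stat3 and Sbno2. In WT cells 5 of 9 were apart on either scale, beside 38.2% of genes, or 54% with protein-coding scaling.

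With LPS, none of the 9 members passed between the genotypes, where 2.36% of all genes did (limma). An unadjusted p under 0.05 was seen for 3 members, Il10ra, Il4ra and Socs3, with no share of all genes counted at that threshold. The log2 fold change of cGAS-/- against WT cells was −0.96 for Il10 (95% confidence interval −1.97 to 0.05, limma adjusted p = 0.283) and −0.80 for Il4ra (−1.42 to −0.18, adjusted p = 0.178). It was 1.08 for Il10ra (0.27 to 1.88, adjusted p = 0.167) and 0.86 for Socs3 (0.09 to 1.63, adjusted p = 0.227). The samples of the genotypes did not overlap at Il4ra, where all cGAS-/- samples were lower, and at Socs3, where all were higher, 2 of 9 members beside 17.7% of genes (3 with protein-coding scaling, beside 19.4%). The values of Bcl3 (0.72), Sbno2 (0.63), Stat3 (0.16), Nfil3 (−0.052) and Il21r (−0.28) also had intervals that include 0. The median of the 9 was 0.16, beside 0.20 over all genes, and relative to that shift Il10 and Il4ra lay further down and Il10ra and Socs3 nearer to 0.

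Which members passed depended on the WT LPS sample left out. No member passed without replicate 1, where 2.97% of all genes did, and Il10ra, Il4ra and Socs3 had an unadjusted p under 0.05 there (limma). Without WT LPS replicate 3, the sample with the low protein-coding share, Il10 (−1.57, limma adjusted p = 0.00856), Il21r (−1.17, adjusted p = 0.00262) and Il4ra (−1.06, adjusted p = 0.0125) passed as lower in cGAS-/- cells, with 8.28% of all genes, while Il10ra came to 0.70, Socs3 to 0.41, Bcl3 to 0.035 and Sbno2 to 0.043, none of which passed. Without WT LPS replicate 2 the 3 members that passed were instead Il10ra (1.58, adjusted p = 0.0011), Socs3 (1.21, adjusted p = 0.0166) and Sbno2 (1.18, adjusted p = 0.017), all higher, with 27.9% of all genes, while Il10 came to −0.59 and Il4ra to −0.45 and neither passed. The value of Il21r turned to 0.31, and that of Bcl3 was 1.19 (adjusted p = 0.0693). With TMM factors Il4ra (−1.17, adjusted p = 0.00238) and Il10 (−1.31, adjusted p = 0.0468) passed beside 4.11% of genes. Il4ra alone passed with protein-coding genes scaled to a common total (−0.998, adjusted p = 0.0448, beside 3.5%) and with weights per sample (−0.86, adjusted p = 0.0483, beside 2.49%). From the 6 LPS samples alone no member passed and none had an unadjusted p under 0.05, and 0.0421% of genes passed. The adjusted p of Il4ra ran from 0.00238 to 0.66 over all the alternatives.

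**Figure D3:**
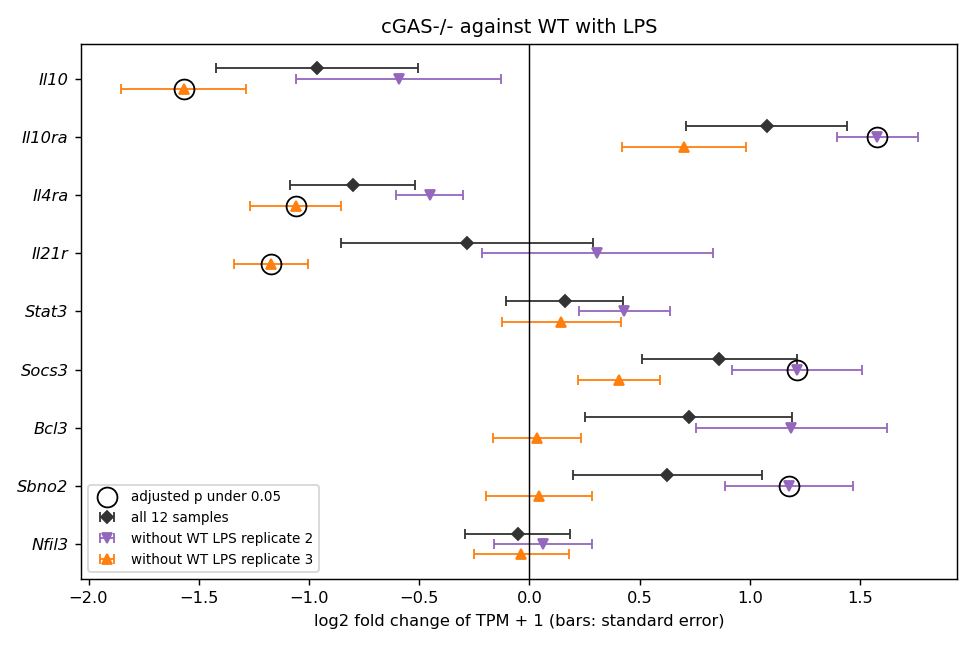
Log2 fold change of TPM + 1 between cGAS-/- and WT cells with LPS (horizontal axis) from all 12 samples and without WT LPS replicate 2 or 3, with standard errors as bars and rings around values with an adjusted p under 0.05. No member has a ring with all samples, Il10, Il4ra and Il21r have one without replicate 3, and Il10ra, Socs3 and Sbno2 have one without replicate 2.

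In UT cells none of the 9 members passed either, where 1.83% of all genes did (limma), and none had an unadjusted p under 0.05. The samples were nevertheless apart at 7 of 9 members, as at 30.5% of genes tested. cGAS-/- samples were lower at Il10, Il10ra, Il4ra, Il21r, Socs3 and Bcl3 and higher at Sbno2. The largest of these was Il21r, at 3.36 ± 0.207 TPM in cGAS-/- and 8.98 ± 0.627 TPM in WT cells (SD, n = 3), which is −1.19 on the log2 scale (SE 0.57, limma adjusted p = 0.683). Il10 followed with −0.998 (adjusted p = 0.631), from 2.58 against 5.78 TPM. Socs3 differed by −0.45 at a level of at most 1.26 TPM.

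This fit gives the UT samples the spread of the WT LPS samples as well. From the 6 UT samples alone 3 of 9 members passed, namely Il21r (−1.19, limma adjusted p = 0.00101), Il10ra (−0.46, adjusted p = 0.00704) and Il4ra (−0.38, adjusted p = 0.0154), beside 10.4% of all genes. With weights per sample Il10 (−1.04, adjusted p = 0.017) and Socs3 (−0.47, adjusted p = 0.0473) passed as well, 5 of 9 beside 11.5% of genes. B cells are among the cell types known to carry the IL-21 receptor. The 7 listed of 10 B cell markers summed to 108 to 134 TPM in WT UT, 19.9 to 28.5 TPM in cGAS-/- UT, 30.6 to 44.9 TPM in WT LPS and 3.04 to 8.84 TPM in cGAS-/- LPS samples, mostly from the immunoglobulin genes Ighm and Igkc. Pax5, a factor that defines B cells, was at 0.0221 TPM or less, and whether B cells had a part in the Il21r values was not tested. The sum of the neutrophil markers also lay apart in UT, at 139 to 214 TPM in WT and 53.3 to 126 TPM in cGAS-/- samples. The highest of them, S100a8 and S100a9, overlapped between the genotypes. S100a8 was at 37.5 to 73.1 TPM in WT and 21.5 to 50.1 TPM in cGAS-/- UT samples, and S100a9 at 63.8 to 110 and 30.6 to 72.3 TPM. Ngp, a granule protein, did not overlap, at 24.1 to 32.3 TPM in WT and at 0.657 to 3.13 TPM in cGAS-/- UT samples. Whether neutrophils had a part in the UT differences was not tested either.

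**Figure D4:**
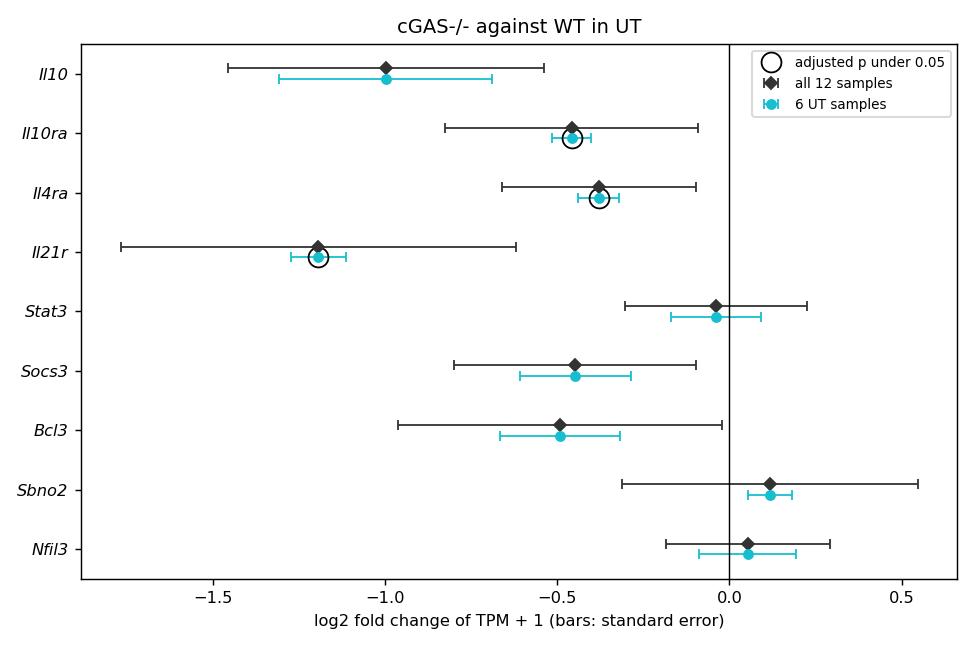
Log2 fold change of TPM + 1 between cGAS-/- and WT cells in UT (horizontal axis), fitted on all 12 samples (diamonds) and on the 6 UT samples alone (circles), with standard errors as bars. The values are the same in both fits, and only the narrower errors of the second put a ring (adjusted p under 0.05) around Il10ra, Il4ra and Il21r.

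The rest of the pathway was described from lists of genes, of which those on later chromosomes were not analysed here, among them Il10rb, Socs1 and Dusp1. Other genes of these lists were in the table but did not pass the filter on low values, and were not tested. Of 21 factors known to regulate Il10 itself, 11 were tested, and none passed between genotypes in either treatment (limma), with 2 at an unadjusted p under 0.05 with LPS and 0 in UT. With LPS, 5 were higher in cGAS-/- cells without WT LPS replicate 2, where 23.9% of all genes were. Between LPS and UT, 1 of the 11 was higher and 4 were lower in WT cells, where 4.31% and 23.3% of all genes were, against 1 and 3 in cGAS-/- cells, where 4.76% and 9.06% were. Of 14 IL-10 family and other STAT3-linked ligands 13 were in the table and 5 were tested. Il6 was the 1 of these that passed between genotypes with LPS, as higher, beside 1.36% of all genes. Csf3, a growth factor of granulocytes, passed as well without WT LPS replicate 2 (1.82, adjusted p = 0.0205, beside 23.9%) or replicate 3 (1.00, adjusted p = 0.011, beside 3.84%), and is named after its values were seen. Il6 was at 1.07, 0.77 and 0.56 TPM in WT LPS and at 14.8, 12.5 and 15.5 TPM in cGAS-/- LPS samples, and at 0.13 TPM or less in UT samples. The groups were far apart, with a log2 fold change of 3.09 between genotypes and 3.14 between their LPS effects (limma adjusted p = 0.000288 for the latter). The study's RNA-seq analysis also had Il6 higher in LPS-treated cGAS-/- cells. Its measurements of supernatant protein had both IL-6 and IL-10 lower in cGAS-/- than in WT BMDMs, so for IL-6 protein and mRNA differed in direction. IL-6 signals through STAT3 as IL-10 does, and SOCS3 acts on the IL-6 receptor.

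Of 17 other receptor chains and kinases 7 were tested. With LPS none passed between genotypes and 2 had an unadjusted p under 0.05. In UT 1, Il27ra, passed as lower in cGAS-/- cells (−0.94), where 1.83% of all genes passed in either direction. It is named after its values were seen. The log2 fold change between genotypes with LPS was 0.88 for Jak1 (adjusted p = 0.211) and 0.57 for Tyk2 (adjusted p = 0.297), the kinases of the IL-10 receptor. They were 1.34 (adjusted p = 0.00165) and 0.93 (adjusted p = 0.00515) without WT LPS replicate 2, and 3 of the 7 passed as higher, beside 23.9% of all genes. Without replicate 3 they were 0.56 and 0.27 and none of the 7 passed. Among 6 other STAT factors all were tested, and Stat4 was the 1 that passed, higher in LPS-treated cGAS-/- cells by 0.97 (limma adjusted p = 0.0286, beside 1.36% of all genes), at 1.18 to 1.59 TPM against 0 to 0.50 TPM. None of the 8 tested of 17 negative regulators of cytokine receptors passed between genotypes (limma), with 3 at an unadjusted p under 0.05 with LPS and 0 in UT, but without WT LPS replicate 2 the count with LPS was 6, all higher, beside 23.9% of all genes.

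Of 25 genes known to be raised by IL-10 or STAT3, 15 were tested. Between LPS and UT, 7 were higher and 3 lower in WT cells (4.31% and 23.3% of all genes), against 8 and 2 in cGAS-/- cells (4.76% and 9.06%). Between the genotypes with LPS none was higher and 2 were lower, as were 1.36% and 1% of all genes. Without WT LPS replicate 3 these counts were 1 and 5, beside 3.84% and 4.44% of all genes, and without replicate 2 they were 3 and 2, beside 23.9% and 3.98%. Il1rn, the antagonist of the IL-1 receptor, was at 156, 298 and 540 TPM in WT LPS samples and at 66.6, 64.3 and 64.4 TPM in cGAS-/- LPS samples, without overlap and highest in WT LPS replicate 3. The difference was −2.15 on the log2 scale (limma adjusted p = 0.0168). In UT Il1rn was also lower in cGAS-/- samples, at 4.94 to 8.82 against 15.6 to 17.1 TPM (−1.22, limma adjusted p = 0.231). The difference between its LPS effects, −0.93, did not pass (limma adjusted p = 0.575). Mrc1, the mannose receptor, was lower by −1.99 with LPS (adjusted p = 0.00582) and by −1.68 in UT (adjusted p = 0.0121). Etv3 (−0.11), Zfp36 (−0.21) and Hmox1 (0.73), which encode a repressor, an mRNA decay factor and heme oxygenase, did not pass (adjusted p = 0.862, 0.75 and 0.447), and the sign of each turned with the WT LPS sample left out. Without replicate 2 the values were 0.28, 0.21 and 1.2, and without replicate 3 they were −0.50, −0.66 and −0.091.

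Of 17 genes known to be lowered by IL-10, mostly cytokines and chemokines, 14 were tested, and 12 were higher with LPS in each genotype, beside 4.31% of all genes in WT and 4.76% in cGAS-/- cells. Between the genotypes with LPS 7 were higher and 1 lower in cGAS-/- cells, beside 1.36% and 1% of all genes, with a median of 1.80 beside 0.20 over all genes. In the interaction 3 were higher and none was lower, beside 0.732% and 0.168% of all genes. Without WT LPS replicate 3, 9 were higher and 1 lower between genotypes (3.84% and 4.44% of all genes) and 6 were higher and 2 lower in the interaction (2.92% and 1.64%). Without replicate 2, 10 were higher and 1 lower between genotypes (23.9% and 3.98%) and 7 were higher and none lower in the interaction (11.4% and 1.22%). Il1b was at 127, 156 and 45.5 TPM in WT LPS and at 915, 771 and 856 TPM in cGAS-/- LPS samples, a difference of 3.11 on the log2 scale (limma adjusted p = 0.00907). The study's PCR of Il1b went the other way, with a higher level in LPS-treated WT than in LPS-treated cGAS-/- BMDMs. The log2 differences in the RNA-seq samples were 2.99 for Cxcl1 (adjusted p = 0.0181), 2.84 for Ptgs2 (adjusted p = 0.023), 2.76 for Cxcl2 (adjusted p = 0.0458) and 1.99 for Il1a (adjusted p = 0.00508). In these genes every cGAS-/- LPS sample lay above every WT LPS sample. The 1 lower gene was Cxcl10 (−1.43, adjusted p = 0.00582), named after its values were seen.

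**Figure D5:**
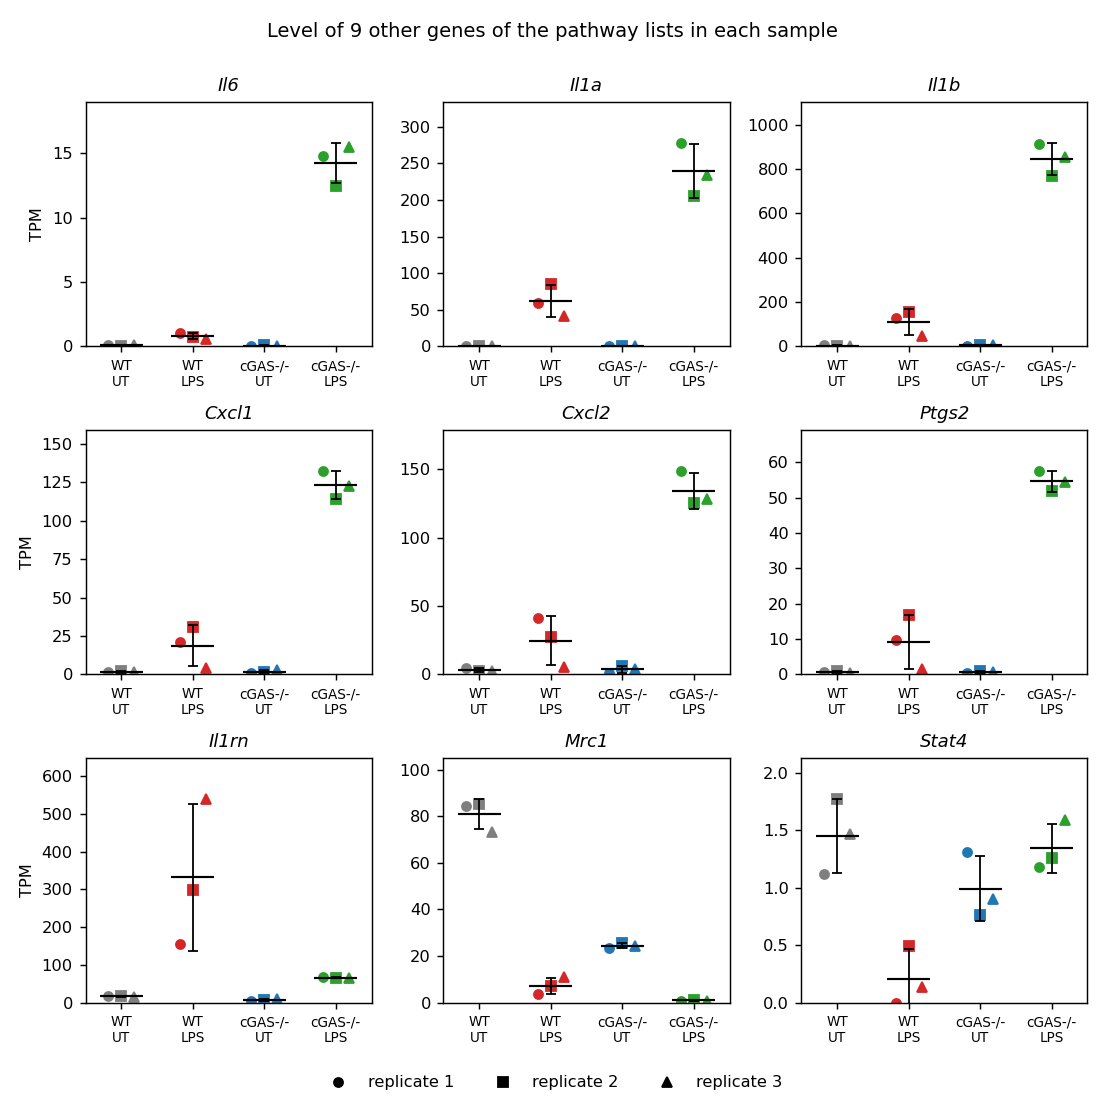
Level in TPM (vertical axes, from 0, separate for each gene) of 9 other genes of the pathway lists in the 3 samples of each group, with marker shape giving the replicate number and black lines the mean and SD. The 6 cytokine, chemokine and prostaglandin synthase genes of the upper rows are highest in cGAS-/- LPS samples, whereas Il1rn is highest in WT LPS samples and Mrc1 in WT UT samples.

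Over the 12 samples, the protein-coding genes whose log2(TPM + 1) was most like that of a member were found by Pearson correlation, as a description in which all points share the 4 groups and the wide WT LPS samples. Socs3 was followed most closely by Klra2 (r = 0.997), Marcksl1 (0.996) and Cd38 (0.992). Il10 was followed by Pdpn (0.965), Dcn (0.955) and Ccl7 (0.944), and Il10ra by Pgm2 (0.982), Zmiz2 (0.977) and Ankrd13a (0.977). For Il4ra these were Slc28a2 (0.98), Ifi208 (0.978) and Stard3 (0.977), and for its neighbour Il21r Clec4a3 (0.977), Acp5 (0.957) and Cnp (0.95). Nfil3 was most like Ifi205 (0.985), Fgl2 (0.981) and Tma16 (0.979). Bcl3 was most like Fgr (0.982), Serp1 (0.977) and Limd2 (0.969), Sbno2 like Ust (0.987), Ankfy1 (0.985) and Cybc1 (0.983), and Stat3, with the lowest values, like Pnpt1 (0.919) and Coa5 (0.869). Among the members themselves r was highest between Socs3 and Nfil3 (0.963) and between Il10 and Il4ra (0.903), and lowest between Il10ra and Nfil3 (−0.40).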

How the data were processed

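Reads were aligned to GRCm39 by the authors using STAR, counted using Kallisto (fastp also appears in the submitters' processing notes) and deposited as 1 table of normalized values for 12 samples. The unit is not stated. The deposited values were read as TPM, averaged per symbol over its transcripts, since for Socs3 and Il4ra all 12 values had at most 6 decimals when multiplied by 3 and 5, as those of Il10 and Nfil3 had unmultiplied. With the smallest multiplier that gave this for most values, it held for 11 of 12 values of Bcl3 and Il21r and for 9 of Il10ra, Stat3 and Sbno2, so the reading is not certain. Read numbers are not known, and no counting error can be given. The table covers chromosomes 1 to 12 and part of 13. Whether counting used strand is not stated, so antisense overlaps are uncertain. Besides Il4ra and Bcl3, Nfil3, Sbno2, Stat3 and Socs3 have such overlaps. Their annotated transcripts share 265, 292, 369 and 145 identical bases with the antisense genes Gm40950, Gm66898, Gm46295 and Gm57366. Parts of Stat3 transcripts matched 202 other genes in all. Whether reads of these genes had a part in the members' values was not tested. Libraries came from 1 kit in all samples.

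Members and lists were chosen with earlier results of these data known. Genes with at least 1 TPM in 3 samples, after scaling each sample to a common total for this filter, were kept (11887). Limma 3.58.1 in R 4.3.3 was fitted to log2(TPM + 1) with a mean per group over 12 samples and variances that follow a trend. The added 1 understates changes at low values. P-values were Benjamini-Hochberg adjusted over all genes tested. The fit was also run on simulated data with the same spread in all groups. The WT LPS samples here spread more widely, so that run cannot vouch for the calls above. Named are all members, up to 6 genes per list that passed between genotypes with LPS or in the interaction, by size, 10 genes fixed by name, and the 3 genes most like each member. Values of some genes that these rules or lists hold are not reported here. Other markers were at most at 1.43 (T and NK cells), 7.75 (dendritic cells), 37.7 (erythroid cells) and 1.13 TPM (mast cells and basophils) in sum.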

Additional observations from a re-analysis of the deposited data

Results flagged for a closer look

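Il10ra was picked out because all WT LPS samples lay below the WT UT samples while all cGAS-/- LPS samples lay above the cGAS-/- UT samples. The cGAS-/- part did not hold with protein-coding genes scaled to a common total, where these groups overlapped and the change was −0.066. The difference between the LPS effects was 1.54 on the log2 scale, with a limma adjusted p of 0.282, so the test of the difference itself did not pass. Socs3 was picked out because cGAS-/- samples lay below all WT samples in UT and above all WT samples with LPS. The difference of these genotype effects was 1.31, with a limma adjusted p of 0.348, which did not pass either, and the UT values were at most 1.26 TPM. With 3 samples in a group, no group was searched for a sample far from the others.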

How the results depend on the processing

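The number of members past the adjusted p was 0 between genotypes with LPS, 0 in UT, 5 and 4 for LPS in WT and cGAS-/- cells and 0 in the interaction. With LPS it was 2 with TMM factors and 1 with protein-coding scaling or weights, and 0 to 3 without single samples. In UT it was 5 with weights and 3 from the 6 samples, and 0 without any single sample. For LPS in WT cells it was 2 from the 6 samples, 2 with the fold threshold added and 3 to 7 without single samples. In cGAS-/- cells it was 8 with weights or from the 6 samples, 1 with the fold threshold and 2 without any 1 of the cGAS-/- samples. In the interaction it was 1 with weights and 0 to 2 without single samples. Of 765 values of single members under an alternative, 667 kept their direction and side of the threshold, 30 were no longer past it, 35 were newly past it and 33 turned sign, none of these past the threshold before. The cause of these changes was not tested.

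Turned values by setting were as follows. With TMM factors Stat3 was at −0.17 and −0.15 (genotypes with LPS, interaction), Sbno2 at 0.37 (LPS in WT) and Il10 at −0.38 (interaction). With protein-coding scaling Stat3 was at −0.030 and −0.029, Il10ra at −0.066 (LPS in cGAS-/-) and Il10 at −0.16 (interaction). With weights Nfil3 was at 0.047 and 0.0020 (genotypes with LPS, interaction), Sbno2 at 0.12 (LPS in WT) and Il10 at −0.37, and with a pseudocount of 5 Il10 was at −0.25 (interaction). Without single samples the ranges that crossed 0 were −0.092 to 0.43 for Stat3, −0.18 to 0.12 for Nfil3 and −1.17 to 0.31 for Il21r between genotypes with LPS, and −0.14 to 0.078 for Stat3 and −0.035 to 0.17 for Nfil3 in UT. They were −0.050 to 1.10 for Bcl3, −0.72 to 0.42 for Sbno2 and −0.38 to 1.10 for Il21r with LPS in WT cells, and −0.57 to 0.40 for Il10, −0.053 to 0.47 for Stat3, −0.073 to 1.06 for Sbno2 and −0.24 to 0.062 for Nfil3 in the interaction.

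Samples with the same number did not deviate together (correlations −0.0315 to 0.0383), so the replicate block was an alternative only. With the replicate block the counts were 0, 0, 4, 3 and 0, with Il10 in WT cells (adjusted p = 0.0627) and Bcl3 in cGAS-/- cells (adjusted p = 0.067) no longer past the threshold. The share of all genes past the threshold with the block is not given here. Where a sample is left out, the other samples of its group are assumed to vary like the remaining groups. Reads per sample are unknown, so low values such as Socs3 in UT carry an unknown counting error.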
